A study of Macaca mulatta with 9 samples.

Results

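The genes described here encode the proteasome and the ubiquitin-conjugating enzymes, as measured in small antral follicles (SAFs) of young adult female rhesus macaques. They were chosen by name: probe sets that the array annotation gives 1 gene symbol, beginning with PSMA, PSMB, PSMC, PSMD, PSME, PSMF or PSMG and a digit, or with UBE2. The choice used no measured value. It gave 126 of the 52766 non-control probe sets, standing for 57 of 14132 genes with such a probe set, of which 73 probe sets (33 genes) carry a proteasome name and 53 probe sets (24 genes) a UBE2 name. After a filter on low signal, 111 probe sets and 55 genes were tested. The other 15 probe sets were dim on these arrays, and PSMB11, a subunit of the thymic proteasome, and UBE2U, a conjugating enzyme, had no tested probe set. A further 8 probe sets carry a proteasome or UBE2 symbol together with other symbols and were left out. Genes without a probe set of their own, such as PSMD14, PSMB9 and UBE2C, were not analysed here.

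The study compared 3 groups of 3 arrays, each array from a separate biological replicate. WSD+T follicles came from females on a western-style diet with chronically raised androgen, WSD follicles from females on the western-style diet without it, and control follicles from females on a normal diet. All were collected at or near menses, in the early follicular phase, and looked healthy, with a clear antrum. Each sample pooled the SAFs of an ovary (3.7 ± 0.3 SAFs per ovary over 3 ovaries per group, kind of error not stated) and held granulosa cells, follicle wall and oocyte together. The dose and length of treatment were not given in the sources used here.

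Ubiquitin is a small protein that marks other proteins. An E1 enzyme activates it, an E2 enzyme (the UBE2 family) carries it, and an E3 ligase places it on a target. Chains of ubiquitin send the target to the proteasome, whose barrel-shaped 20S core cuts proteins inside a chamber of alpha (PSMA) and beta (PSMB) rings. A 19S cap of ATPases (PSMC) and non-ATPases (PSMD) binds, unfolds and feeds the targets in. In follicles this system removes cell cycle proteins from dividing granulosa cells and from the oocyte at meiosis, and quality control at the endoplasmic reticulum (ER) of hormone-making cells depends on it.

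Values are linear array signals, and fold changes are differences of group means on the scale log2(signal + 16), which understates the change of dim probe sets. A difference was called at an adjusted p under 0.05 in limma, over all 26383 tested probe sets. A gene in a count stands for its tested probe set of highest mean. The group comparisons share arrays, so a control array that stands high or low moves both comparisons against control. Known genes of the labelled tissue were present, with INHA of granulosa cells at 280 to 393 in WSD+T, 306 to 728 in WSD and 957 to 2605 in control, STAR of steroid-making cells at 1853 or more on every array and ZP3 of the oocyte coat at 143 or more. The arrays differed in myeloid marker signal: the sum over 11 markers, all above 0, was 16026 to 17649 in WSD+T, 1421 to 24827 in WSD and 2137 to 10354 in control. Of these markers, none was called in any of the 3 comparisons. Whether the cell makeup differed between arrays was not tested. The WSD+T arrays varied least within their group (mean variance 0.0411, against 0.330 in WSD and 0.152 in control, on the log2 scale), and the fit uses 1 shared spread per probe set.

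By limma, no proteasome subunit was called in any comparison, and a few ubiquitin-conjugating enzymes were. In WSD against control, 7 of 111 member probe sets were called, 4 higher and 3 lower, where 14.5% of all tested probe sets were called. They stood for UBE2K and UBE2T, which fell, UBE2J1 and UBE2L3, which rose, and PSMC3IP, which has a proteasome prefix but is no subunit. In such mixed samples fewer cells of a type and less RNA per cell cannot be told apart. In WSD+T against control, 2 of 111 were called, UBE2K and UBE2T, both lower, where the background was 1.97%. In WSD+T against WSD, only UBE2G1 was called, higher on 1 probe set, where the background was 2.99%. Counted by gene, 4 of 55, 2 of 55 and 1 of 55 member genes were called in these comparisons, with backgrounds of 15.5%, 2.34% and 2.88%. The counts for WSD against control were thus below the background, and those of the other comparisons near or below it. Of the 49 tested UBE2 probe sets alone, 12.2%, 4.08% and 2.04% were called, beside 14.5%, 1.97% and 2.99% of all tested probe sets. Without WSD+T replicate 1, 3 of all 26383 tested probe sets were called in WSD+T against control and 0 in WSD+T against WSD. Without WSD+T replicate 3 these counts were 0 and 7. Loss of a call in those fits is therefore not particular to a member.

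None of the 41 tested probe sets of 20S and 19S subunits was called by limma in any comparison. At an unadjusted p under 0.05 there were 2, 4 and 6 of 41 for WSD against control, WSD+T against control and WSD+T against WSD, where 31.1%, 19.2% and 20.9% of all tested probe sets had such a p. By the brightest probe set of each subunit gene, the other fits made at most 2 calls in a comparison. Over all subunit probe sets, array weights called 1 higher (PSMB8) and 2 lower (PSMC3 and PSMD11) in WSD+T against control. The 95% intervals are narrow enough to bound the change. For the 22 constitutive subunit genes, all 22 intervals lay within a 2-fold change either way in WSD against control and all 22 in WSD+T against control, and 21 of 22 did in WSD+T against WSD, the exception being PSMC3. Over all 10002 tested genes, which were not matched for signal, 6240, 7054 and 7051 intervals lay within those bounds. With only the 2 groups compared in the fit, the counts for the constitutive subunits were again 22, 22 and 21. These genes were taken by name and include PSMD9, an assembly factor with a subunit name. Without it the counts in the fit of all groups were 21, 21 and 20 of 21, and none of the other 38 probe sets was called.

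**Figure D1:**
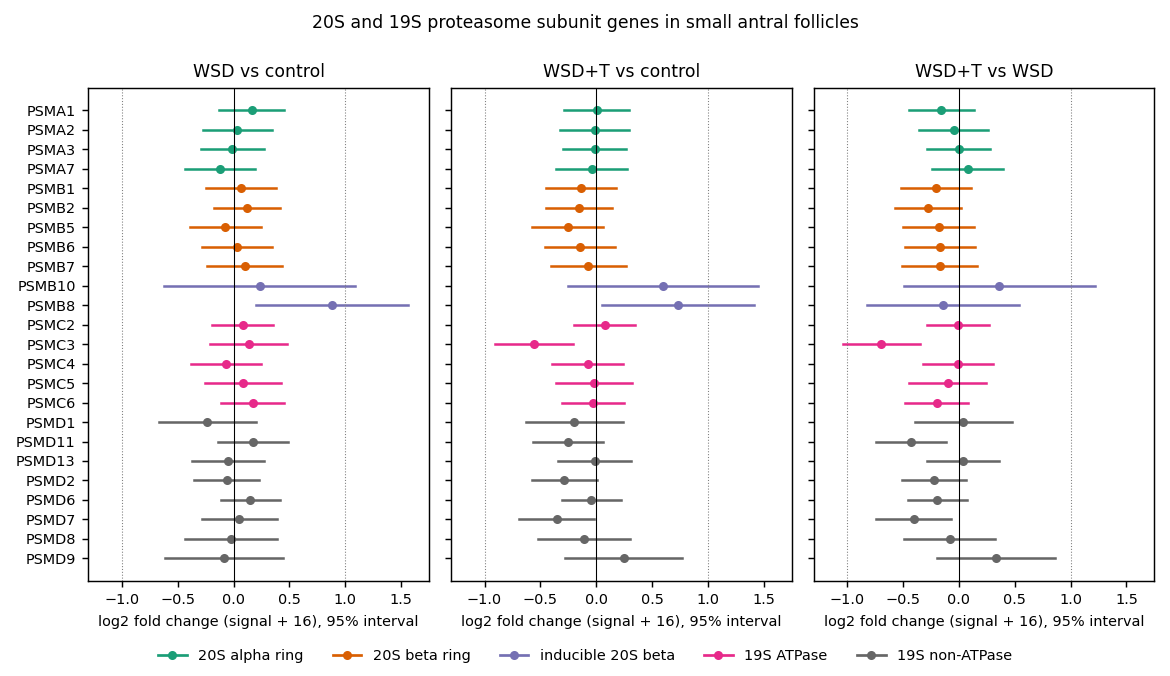
Log2 fold changes of the 24 tested 20S and 19S subunit genes in 3 comparisons, with 95% intervals from limma as horizontal lines, coloured by the role of the subunit. Dotted lines mark a 2-fold change. Nearly all points sit close to 0, the inducible subunits PSMB8 and PSMB10 lie to the right of 0 in both comparisons with control with wide intervals, and PSMC3 lies to the left in both comparisons of WSD+T.

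The 4 alpha ring genes, which form the gate of the core, gave log2 fold changes of -0.12 to 0.16 in WSD against control and -0.04 to 0.01 in WSD+T against control. PSMA3 had signals of 2666, 2897 and 2577 in WSD+T, 2611, 2706 and 2831 in WSD, and 2624, 2648 and 2946 in control. PSMA7 had 2953, 3220 and 2770 in WSD+T, 2794, 2812 and 2843 in WSD, and 2747, 2971 and 3523 in control. In both genes the ranges of the 3 groups overlapped throughout, and control replicate 3 was the highest array.

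The beta ring holds the cutting sites: PSMB6 carries the caspase-like, PSMB7 the trypsin-like and PSMB5 the chymotrypsin-like activity. PSMB5 had signals of 2730, 2731 and 2720 in WSD+T, 3129, 2867 and 3282 in WSD, and 3097, 2939 and 3789 in control. The WSD+T arrays were below every WSD and control array, but the log2 fold change against control was only -0.25 (95% interval -0.57 to 0.06, adjusted p = 0.358) and was not called. PSMB6 had 1722, 1903 and 1766 in WSD+T, 1970, 2000 and 2106 in WSD, and 1938, 1769 and 2289 in control. PSMB7 had 2297, 2652 and 2205 in WSD+T, 2750, 2506 and 2798 in WSD, and 2465, 2211 and 2867 in control. PSMB6 was lower on every WSD+T array than on any WSD array, PSMB7 overlapped in all comparisons, and neither was called. All 5 constitutive beta genes had a log2 fold change below 0 in WSD+T against WSD, from -0.27 to -0.17.

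Across all 9 arrays the constitutive subunits were among the steadier genes. The highest array was less than 1.5 times the lowest for 16 of 22, and less than 2 times for 22 of 22. Among all tested genes these shares were 15.8% and 42.6%. The ATPase PSMC2 was the steadiest, with a highest to lowest ratio of 1.12, and PSMC3 the least steady, at 1.95. The UBE2 genes were less even than the subunits, with 8 of 23 under 1.5 times and a ratio of 4.36 for UBE2K. The residual SD of the subunit genes had a median of 0.123 on the log2 scale, against 0.246 for all tested genes.

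The median log2 fold change of the 24 subunit genes was 0.06 in WSD against control, -0.06 in WSD+T against control and -0.15 in WSD+T against WSD, where the medians over all tested genes were -0.08, -0.01 and 0.09. The small shifts against control depended on single arrays. Control replicate 3 was the highest array for 11 of the 24 genes and WSD replicate 2 for 9, and without control replicate 3 the WSD+T against control median was 0.02. The WSD+T against WSD median ran from -0.16 to -0.12 with 1 array left out, and was -0.08 with quantile normalization. With each gene centred on its mean over the arrays, the 22 constitutive subunit genes averaged -0.092 to -0.074 on the WSD+T arrays. That was below every WSD and control array (-0.067 to 0.160), a difference that was not tested. With PSMB8 and PSMB10 included, control replicates 1 and 2 were lower than the WSD+T arrays. Groups did not overlap for 5, 11 and 14 of the 41 subunit probe sets in these 3 comparisons, and for 30, 42 and 29 of all 111 member probe sets, where the share over all tested probe sets was 30.8%, 36.8% and 28.5%. All 14 subunit probe sets apart in WSD+T against WSD were lower in WSD+T. The 11 in WSD+T against control split into 9 lower and 2 higher, and the 5 in WSD against control into 1 lower and 4 higher.

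**Figure D2:**
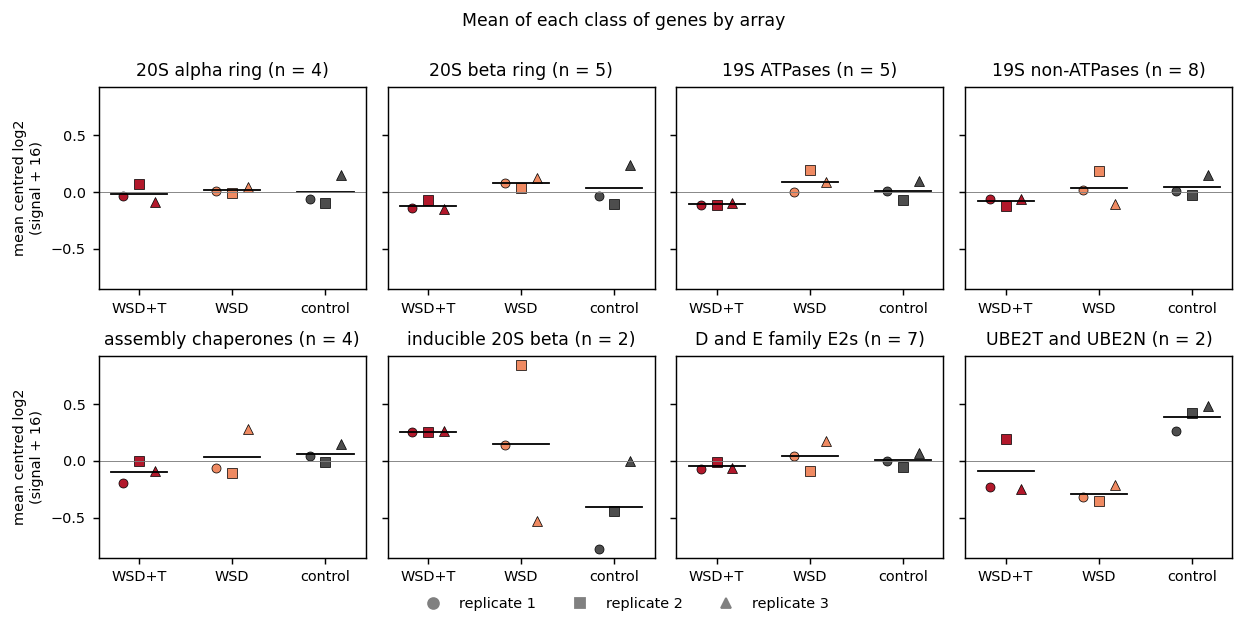
Mean of the log2(signal + 16) values of each class of genes on each array, every gene centred on its mean over the 9 arrays, for WSD+T, WSD and control from left to right. Points are arrays, with a marker per replicate, lines are group means, and n is the number of genes. The 20S and 19S classes vary little, whereas the inducible subunits spread widely among the WSD arrays. The 19S ATPases are lower on every WSD+T array (-0.12 to -0.10) than on any other array (-0.07 to 0.20). The 20S beta ring is lower on every WSD+T array than on any WSD array, and the 19S non-ATPases than on any control array. The alpha ring overlaps between all groups. These class means were not tested. The mean of UBE2T and UBE2N, both DNA repair enzymes, is higher on every control array than on any diet array. That separation comes from UBE2T, as UBE2N overlaps between the groups.

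Among the 19S ATPases, the motor of the cap, PSMC3 was the one that stood apart. Its signals were 414, 482 and 515 in WSD+T, 701, 805 and 801 in WSD, and 764, 600 and 740 in control. Every WSD+T array was below every array of the other groups. The log2 fold change was -0.69 in WSD+T against WSD (SE 0.15, 95% interval -1.04 to -0.35, adjusted p = 0.0504) and -0.56 in WSD+T against control (SE 0.15, adjusted p = 0.105), so neither difference was called. The difference from WSD passed in 3 of 20 alternative settings, and that from control in 1 of 20, with array weights. The other 4 ATPases, PSMC2, PSMC4, PSMC5 and PSMC6, had log2 fold changes between -0.20 and 0.17 in all 3 comparisons by their brightest probe sets, and a second probe set of PSMC5 gave -0.34 in WSD+T against WSD, not called. PSMC3 has 1 tested probe set, so no second measurement was at hand.

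The 8 tested non-ATPase genes include the large scaffolds PSMD1 and PSMD2 and the lid subunits that hold the deubiquitinating site in place. PSMD11, a lid subunit, had signals of 530, 451 and 538 in WSD+T, 688, 754 and 615 in WSD, and 581, 625 and 610 in control. PSMD7, the partner of the lid's deubiquitinase, had 482, 394 and 515 in WSD+T, 633, 636 and 579 in WSD, and 634, 619 and 533 in control. Both were lower on each WSD+T array than on any WSD or control array, with log2 fold changes of -0.43 (adjusted p = 0.125) for PSMD11 and -0.41 (adjusted p = 0.163) for PSMD7 in WSD+T against WSD, neither called. The other probe set of PSMD11 gave -0.39 in this comparison. PSMD9, a factor in building the cap, had 3 tested probe sets that gave -0.09, 0.46 and 1.25 in WSD against control, none called, with an adjusted p of 0.0620 for the last.

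A protein that docks on the cap did change. USP14, a deubiquitinase that trims ubiquitin chains on the bound target, is in the list of proteasome helpers. It had signals of 213, 252 and 164 in WSD+T, 465, 500 and 546 in WSD, and 465, 739 and 566 in control. The 3 WSD+T arrays were far below all 6 others, and WSD overlapped control. USP14 fell in WSD+T against control (log2 fold change -1.42, SE 0.21, adjusted p = 0.0202) and in WSD+T against WSD (-1.22, SE 0.21, adjusted p = 0.0303), and did not pass in WSD against control (-0.20, adjusted p = 0.546). All 5 tested probe sets of USP14 were called in both comparisons of WSD+T, with log2 fold changes of -1.49 to -1.37 against control. Calls of this gene were lost without WSD+T replicate 1, where the adjusted p was 0.122 against control and 0.141 against WSD, and in some other settings. Only 3 and 0 of all 26383 tested probe sets were called in these comparisons without that array. The log2 fold change of USP14 against control stayed between -1.58 and -1.25 over the alternatives.

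Cells under interferon exchange the catalytic beta subunits for inducible ones, PSMB8 and PSMB10 among them, and so build the immunoproteasome, which is abundant in immune cells. PSMB8 had signals of 288, 314 and 317 in WSD+T, 369, 514 and 205 in WSD, and 137, 192 and 212 in control. Every WSD+T array was above every control array, and WSD was split, with replicates 1 and 2 high and replicate 3 inside the control range. Its log2 fold change was 0.73 in WSD+T against control (95% interval 0.05 to 1.42, adjusted p = 0.234) and 0.88 in WSD against control (0.20 to 1.56, adjusted p = 0.0844), neither called. Without WSD replicate 3 it passed in WSD against control (adjusted p = 0.00868), and also with median centring. In WSD+T against control it passed in 2 of 20 alternatives, only the 2 groups compared and array weights (adjusted p down to 0.0382). PSMB10 had 421, 384 and 389 in WSD+T, 277, 552 and 185 in WSD, and 193, 226 and 390 in control, and was not called in any comparison.

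UBE2L6, the E2 that carries the interferon-induced modifier ISG15, had a like pattern. Its signals were 1210, 1228 and 1390 in WSD+T, 1259, 1864 and 1013 in WSD, and 803, 953 and 819 in control. All arrays of both diet groups were above all control arrays. The log2 fold change was 0.56 in WSD+T against control (adjusted p = 0.211) and 0.63 in WSD against control (adjusted p = 0.0847), neither called. WSD against control passed without WSD replicate 3 (adjusted p = 0.0195) and with median centring. WSD+T against control passed in 2 of 20 alternatives, only the 2 groups compared and array weights (adjusted p down to 0.0343). The summed signal of the myeloid markers was 17649, 16026 and 16982 in WSD+T, 17026, 24827 and 1421 in WSD, and 10354, 2137 and 2776 in control, so that WSD replicate 2 was highest and WSD replicate 3 lowest among the WSD arrays for PSMB8, PSMB10, UBE2L6 and the markers alike. Among the control arrays the order differed: replicate 1 had the highest marker sum and the lowest PSMB8, PSMB10 and UBE2L6. WSD replicate 3 had the lowest marker sum of all arrays, yet its UBE2L6 was above every control array. The part of myeloid cells in these values was not tested. ISG15 itself had log2 fold changes of -0.26 in WSD+T against control and 0.07 in WSD against control, neither called.

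**Figure D3:**
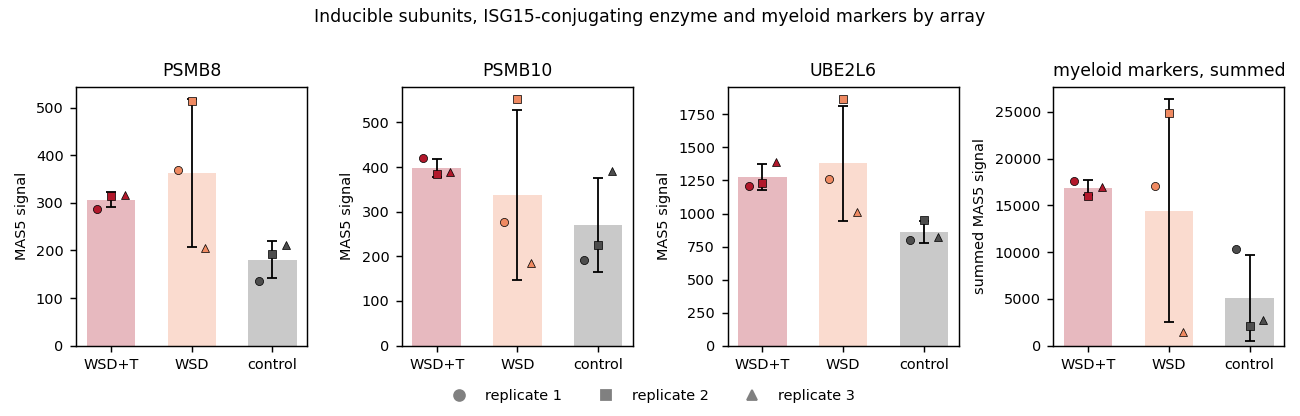
Signal by array of the inducible proteasome subunits PSMB8 and PSMB10 and the ISG15-carrying enzyme UBE2L6, beside the summed signal of 11 myeloid markers, for WSD+T, WSD and control. Bars are group means with the SD of 3 arrays, and points are arrays with a marker per replicate. In all 4 panels WSD replicate 2 (square) is the highest array, and WSD replicate 3 (triangle) is the lowest WSD array.

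The proteins that load, open or block the core showed no called change. The activator subunit PSME2 had signals of 1483 to 1876 over the WSD+T and WSD arrays and 1512 to 1904 over the control arrays, with log2 fold changes of 0.08 in WSD+T against control and 0.01 in WSD against control. PSME3, an activator of the nuclear proteasome, gave 0.39 and 0.28. PSMF1, an inhibitor of the core, had 4 tested probe sets, of which none was called, and its brightest gave -0.14 and 0.21. The assembly chaperones PSMG1 to PSMG4, which build the alpha ring, had log2 fold changes from -0.45 to 0.31 in WSD against control and from -0.27 to 0.08 in WSD+T against control, by their brightest probe sets. The lowest of these was PSMG3 in WSD against control (adjusted p = 0.141).

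PSMC3IP binds PSMC3 and acts in the pairing of chromosomes at meiosis, so its probe sets say nothing of proteasome content. It had 8 tested probe sets, which disagreed. In WSD against control 6 had a log2 fold change above 0, from 0.55 to 1.10, none called, and 2 had one below 0. The brightest gave 0.55 (adjusted p = 0.0597), with every WSD array above every control array. The called probe set fell (-1.05, SE 0.23, adjusted p = 0.0206), with signals of 128, 106 and 153 in WSD+T, 122, 111 and 85.6 in WSD, and 169, 301 and 250 in control. Its call was lost without control replicate 2 (adjusted p = 0.0661) or control replicate 3, in the fit of only the 2 groups and with array weights. Other PSMC3IP probe sets were called higher with a pseudocount of 64, the filter at the 75th percentile, median centring and without WSD replicate 3. Whether these probe sets report different transcripts was not tested.

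Of all members, UBE2K changed most. UBE2K builds ubiquitin chains by itself and also serves at the ER. Its signals were 215, 297 and 232 in WSD+T, 277, 223 and 260 in WSD, and 788, 937 and 869 in control. Every control array was far above every array of both diet groups. UBE2K fell 3.27-fold in WSD against control (log2 fold change -1.71, SE 0.16, adjusted p = 0.00296) and 3.36-fold in WSD+T against control (-1.75, SE 0.16, adjusted p = 0.0114). Between WSD+T and WSD the log2 fold change was -0.04 (95% interval -0.41 to 0.33, adjusted p = 0.928). The call in WSD against control held in all 20 alternatives, and that in WSD+T against control in 16 of 20. The latter was lost without WSD+T replicate 1 (adjusted p = 0.107) or replicate 3, fits in which hardly any probe set was called. Its log2 fold change against control stayed between -1.88 and -1.58 over the alternatives. UBE2K has 1 tested probe set.

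UBE2T works with the Fanconi anaemia complex to mark damaged DNA during replication. Its signals were 356, 579 and 352 in WSD+T, 278, 298 and 312 in WSD, and 768, 872 and 861 in control. All control arrays were above all arrays of both diet groups, and WSD was also below WSD+T on every array. UBE2T fell in WSD against control (log2 fold change -1.45, SE 0.20, adjusted p = 0.00478, passing in 20 of 20 alternatives) and in WSD+T against control (-0.97, SE 0.20, adjusted p = 0.0481). The call in WSD+T against control passed in 9 of 20 alternatives and was lost without WSD+T replicate 1 (adjusted p = 0.224) and without most other single arrays. The difference between WSD+T and WSD, 0.48, was not called (adjusted p = 0.212).

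UBE2S extends chains for the anaphase-promoting complex, the ligase that ends mitosis. It had signals of 264, 318 and 340 in WSD+T, 615, 304 and 471 in WSD, and 570, 627 and 674 in control. WSD+T lay wholly below control, while WSD spanned both. The log2 fold change of -0.99 in WSD+T against control (SE 0.24, adjusted p = 0.0756) was not called. It passed in 3 of 20 alternatives: without WSD replicate 2 (adjusted p = 0.0178), with only the 2 groups compared and with array weights. In the same comparison a second probe set gave -0.94 and another 0.02. Markers of cycling cells were also lower: 4 of 7 tested markers fell in WSD against control and 4 of 7 in WSD+T against control. Their summed signal was 4754 to 5767 in WSD+T, 4789 to 6019 in WSD and 8761 to 11642 in control, with none at 0. Over all tested genes, 15.5% were called in WSD against control and 2.34% in WSD+T against control. The part of cycling cells in the lower UBE2T and UBE2S values was not tested. Of 6 tested granulosa markers, INHA and INHBB fell in each comparison with control and the other 4 were not called. The brightest INHBB probe set was dim in the diet groups, at 19.5 to 21.5 in WSD+T and 5.70 to 29.9 in WSD. In control it was at 106 to 158, so it passed the filter only because of its level there. The size of its change therefore depends on the pseudocount. The summed signal of the 6 granulosa markers was 2118 to 2778 in WSD+T, 1304 to 3966 in WSD and 5228 to 7957 in control.

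UBE2N, a partner in another form of DNA repair and in inflammatory signalling, did not follow UBE2T. Its signals were 3447, 3896 and 3406 in WSD+T, 3847, 3453 and 4016 in WSD, and 3237, 3567 and 3939 in control. The log2 fold changes were 0.00 in WSD+T against control (95% interval -0.31 to 0.32) and 0.08 in WSD against control (-0.24 to 0.39), and both intervals lay within a 1.5-fold change.

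**Figure D4:**
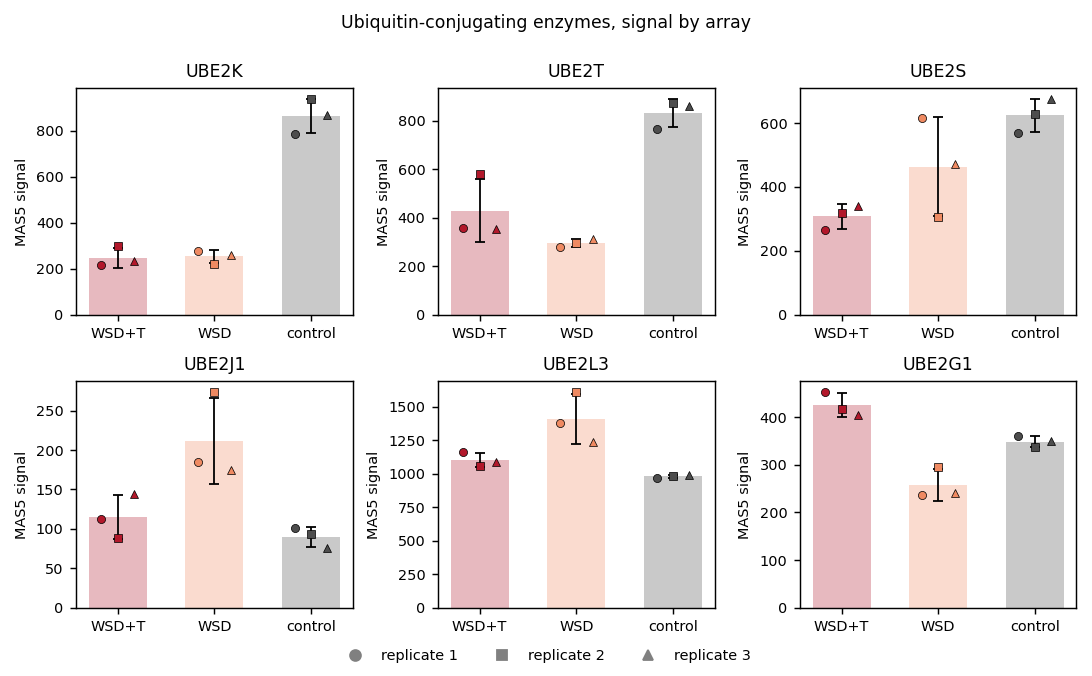
Signal by array of 6 ubiquitin-conjugating enzymes in WSD+T, WSD and control. Bars are group means with the SD of 3 arrays, and points are arrays with a marker per replicate; UBE2J1 is shown by its probe set of smallest p and the others by their probe set of highest mean. UBE2K and UBE2T are lower in both diet groups, UBE2J1 and UBE2L3 are highest in WSD, and UBE2G1 is lowest in WSD.

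The ER uses its own E2s to dispose of misfolded proteins, UBE2J1 and UBE2J2 in its membrane and UBE2G1 and UBE2G2 beside it. UBE2J1 rose in WSD against control on 3 of 5 tested probe sets. On the one of smallest p its signals were 112, 88.5 and 144 in WSD+T, 184, 274 and 175 in WSD, and 101, 93.7 and 76.1 in control. The WSD arrays were above all others there, and WSD+T overlapped control. The 3 called probe sets had log2 fold changes of 1.08, 1.04 and 0.91 (adjusted p = 0.0162, 0.0240 and 0.0289). The other probe sets gave 0.65 (adjusted p = 0.0757) and 0.02. All 3 calls were lost without control replicate 3 (adjusted p = 0.0552, 0.0722 and 0.0892) and in the fit of only the 2 groups. They passed in 16 of 19, 14 of 20 and 10 of 20 alternatives, and in 8, 6 and 3 of 9 with 1 array left out. In WSD+T against WSD the probe set of smallest p gave -0.79 (adjusted p = 0.0871) and was not called.

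UBE2G1 was the only member called between the diet groups. Its signals were 453, 416 and 405 in WSD+T, 236, 295 and 241 in WSD, and 360, 337 and 349 in control. The 3 groups did not overlap, with WSD lowest, control between and WSD+T highest. UBE2G1 rose in WSD+T against WSD (log2 fold change 0.69, SE 0.13, adjusted p = 0.0376), and the call passed in 7 of 20 alternatives, failing without WSD+T replicate 1 (adjusted p = 0.170) and in the fit of only the 2 groups. Against control it gave 0.27 in WSD+T and -0.42 in WSD (adjusted p = 0.307 and 0.0690), neither called. Its other tested probe set gave 0.13 in WSD+T against WSD (adjusted p = 0.791). UBE2G2 and UBE2J2 were not called in any comparison, with log2 fold changes of 0.01 and 0.29 in WSD+T against control and of -0.09 and 0.59 in WSD against control.

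The D and E families are the general-purpose E2s that work with many ligases. None of their 13 tested probe sets, for 7 genes, was called in any comparison by limma. At an unadjusted p under 0.05 there were 5 in WSD against control, 1 in WSD+T against control and 0 in WSD+T against WSD, beside the shares of 31.1%, 19.2% and 20.9% over all tested probe sets. UBE2D1 had signals of 1342, 1442 and 1470 in WSD+T, 1885, 1358 and 2114 in WSD, and 1166, 1296 and 1426 in control, and its log2 fold change in WSD against control was 0.44 (adjusted p = 0.139). WSD replicates 1 and 3 were above all other arrays, and without WSD replicate 2 UBE2D1 passed (adjusted p = 0.0300). UBE2E2 had 1416, 1520 and 1470 in WSD+T, 1463, 1669 and 1560 in WSD, and 1801, 2098 and 2056 in control. Both diet groups lay below control in UBE2E2, with -0.43 for WSD+T (adjusted p = 0.129) and -0.34 for WSD (adjusted p = 0.109), neither called. By their brightest probe sets, UBE2D3, UBE2E1 and UBE2E3 varied by no more than 1.36 times between the lowest and the highest array. Over all 13 probe sets, log2 fold changes in WSD against control ran from -0.37 to 0.61 (smallest adjusted p = 0.0636). A probe set of UBE2D3 was called higher there with a pseudocount of 64, the filter at the 75th percentile, median centring and without WSD replicate 3.

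Other E2s carry ubiquitin-like proteins. UBE2F and UBE2M both load NEDD8, the activator of cullin ligases. UBE2F had log2 fold changes of -0.15 in WSD+T against control and -0.03 in WSD against control, and its 4 tested probe sets were not called. UBE2M was dim, at 21.3 to 48.7 over the 9 arrays, and gave 0.03 and -0.09, with no call.

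UBE2L3, a partner of ligases such as parkin, rose on 1 of 3 probe sets in WSD against control. That probe set had signals of 1164, 1056 and 1089 in WSD+T, 1376, 1611 and 1238 in WSD, and 966, 985 and 990 in control. The groups did not overlap, and control varied least. The log2 fold change was 0.51 (SE 0.14, adjusted p = 0.0407), and the call passed in 7 of 20 alternatives, failing without control replicate 2 (adjusted p = 0.0981) and with most other single arrays left out. The other probe sets of UBE2L3 gave 0.01 and -0.39, neither called. UBE2O, UBE2Q1, UBE2R2 and UBE2W were not called in any comparison.

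The rest of the pathway was described from lists of known genes. Over all tested genes, 15.5%, 2.34% and 2.88% were called in WSD against control, WSD+T against control and WSD+T against WSD. Of 6 tested ubiquitin-activating and related E1 enzymes, 1 was called by its brightest probe set, ATG7, the E1 of autophagy. It fell in WSD against control (log2 fold change -0.88, SE 0.15, adjusted p = 0.00877), with signals of 368, 405 and 383 in WSD and 662, 870 and 658 in control. That was 1 of its 3 probe sets, and the other 2 gave 0.30 and 0.40, not called. UBA7, the E1 of ISG15, and SAE1, part of the E1 of SUMO, also fell in WSD against control on 1 probe set each (-0.57, adjusted p = 0.0249, and -0.56, adjusted p = 0.0322), which was not the brightest. No E1 probe set was called in the comparisons of WSD+T by limma. Of 14 tested helpers of the proteasome, 1 was called lower in each comparison: PAAF1, which binds 19S ATPases, in WSD against control (-0.88, adjusted p = 0.0215, passing in 14 of 20 alternatives and lost without WSD replicate 1, control replicate 1 or control replicate 2, with adjusted p up to 0.0695) and USP14 in both comparisons of WSD+T. The medians of the helpers, -0.03, -0.06 and -0.13 in WSD against control, WSD+T against control and WSD+T against WSD, stood beside -0.08, -0.01 and 0.09 for all genes.

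Of 11 tested regulators of proteasome genes, counted by their brightest probe set, 2 rose in WSD against control and none was called in the other comparisons by limma. The share called over all tested genes was 15.5% in WSD against control, 2.34% in WSD+T against control and 2.88% in WSD+T against WSD. MAFF, a small Maf partner of the NRF factors, had signals of 1737, 939 and 783 in WSD, and 321, 129 and 311 in control, and rose by 2.13 on the log2 scale (SE 0.40, adjusted p = 0.0120). STAT3 was called higher (adjusted p = 0.00771) on a dim probe set, at 87.2, 71.7 and 46.0 in WSD and 15.4, 13.3 and 21.7 in control, so that the size of its change depends on the pseudocount. NFE2L1, the main activator of proteasome genes when the proteasome is short, gave -0.46 in WSD against control (adjusted p = 0.0619) and -0.04 in WSD+T against control. NFE2L2 gave -0.13 and -0.06, not called, but NFE2L2 has 5 tested probe sets, and 2 of the dimmer ones rose in WSD against control (0.75, adjusted p = 0.0144, and 0.69, adjusted p = 0.0225). NFYA, a subunit of a promoter-binding factor, was called lower there on 2 probe sets that are not its brightest.

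In the list of antigen processing and interferon partners, 10 genes were tested. UBD encodes FAT10, a ubiquitin-like tag that sends proteins directly to the proteasome. It had signals of 106, 61.7 and 84.6 in WSD+T, 12.4, 41.3 and 12.05 in WSD, and 7.72, 1.18 and 11.6 in control, and was called higher in WSD+T against control (adjusted p = 0.0207) and against WSD (adjusted p = 0.0490). Every WSD+T array was above every WSD and control array. All 3 control arrays and 2 of the 3 WSD arrays were below the filter signal of 21.2, so UBD was tested only because of its level in WSD+T, and the size of its change depends on the pseudocount (log2 fold changes of 1.06 to 3.74 against control over the alternatives). The call against control passed in 12 of 19 alternatives and failed in 5 of 9 with 1 array left out, and the call against WSD passed in 2 of 19 and failed in 8 of 9. Without WSD+T replicate 1 the adjusted p was 0.125 against control and 0.189 against WSD. ERAP2, a peptidase that trims peptides for antigen display, fell in WSD against control (-0.75, adjusted p = 0.0388) and rose in WSD+T against WSD (1.30, adjusted p = 0.0246). The call in WSD against control passed in 3 of 19 alternatives and was lost in 7 of 9 with 1 array left out (adjusted p up to 0.102). That in WSD+T against WSD passed in 11 of 19 and was lost in 4 of 9 (adjusted p up to 0.140). TAP1, B2M and IRF1 were not called in any comparison.

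In WSD against control, WSD+T against control and WSD+T against WSD, 15.5%, 2.34% and 2.88% of all tested genes were called. For all tested probe sets these shares were 14.5%, 1.97% and 2.99%. Among 36 tested ubiquitin ligase genes, counted by their brightest probe set, 4 rose and 4 fell in WSD against control, 1 fell in WSD+T against control, and none was called in WSD+T against WSD by limma. Over all their 82 tested probe sets, 5 were called higher and 9 lower in WSD against control, 2 higher and 2 lower in WSD+T against control, and 1 higher in WSD+T against WSD. Those that rose were FBXO32, a muscle-wasting ligase subunit known as atrogin (log2 fold change 1.47, adjusted p = 0.0320), CUL2, a cullin scaffold (1.01, adjusted p = 0.0101), SMURF2, which targets TGF-beta signalling (0.53, adjusted p = 0.0356), and RNF7. Those that fell were SKP2, the ligase subunit that removes cell cycle inhibitors (-1.33, SE 0.24, adjusted p = 0.0105), BTRC (-0.85, adjusted p = 0.0177), ANAPC7, a subunit of the anaphase-promoting complex (-0.65, adjusted p = 0.0232), and STUB1. All 3 tested probe sets of SKP2 were called lower, beside the lower cycling markers given above. The other probe set of CUL2 gave 0.34, not called. CUL2 and SKP2 each passed in 19 of 20 alternatives. FBXO32 passed in 8 of 20 alternatives and in 2 of 9 with 1 array left out (adjusted p up to 0.0943). SMURF2 passed in 9 of 20 and in 2 of 9 (adjusted p up to 0.0977). ANAPC7 passed in 13 of 20 and in 6 of 9 (adjusted p up to 0.0752). BTRC passed in 16 of 19 and in 8 of 9, failing without control replicate 1 (adjusted p = 0.0520). FBXO32 also rose in WSD+T against control on 2 of its 4 probe sets (2.09, adjusted p = 0.0323, and 2.15, adjusted p = 0.0415), while the brightest gave 1.42 there (adjusted p = 0.0917). The other calls on probe sets that are not a gene's brightest were ANAPC1 and HUWE1, lower in WSD against control, ANAPC5, lower in WSD+T against control (-0.79, adjusted p = 0.0478), and CUL4B, a cullin scaffold, higher in WSD+T against WSD (0.69, adjusted p = 0.0323). Against control, ITCH fell in WSD+T (-0.95, adjusted p = 0.0325). That call passed in 13 of 20 alternatives and in 4 of 9 with 1 array left out (adjusted p up to 0.173, without WSD+T replicate 1).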

How the data were processed

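Linear intensities per probe set, deposited by the authors for 9 samples on 1-colour arrays, came from MAS5, per the submitters' processing notes. Its version and the genome build were not given in the sources used here. On every array the mean without the outer 2% was 200.01, so the arrays had been scaled before deposit. RNA was amplified from its 3′ end, per the labels' protocols. Sequencing depth does not apply, and the number of arrays limits the precision. Symbols are those of the array annotation, not checked against probe sequences; a RefSeq table held the Entrez ID of 125 of 126 member probe sets. Log2(signal + 16) was fitted with limma 3.58.1 (R 4.3.3), with a mean per group over 9 arrays and 6 residual degrees of freedom. Tested were the 26383 probe sets whose mean reached the median of non-control probe sets (5.22, a signal of 21.2), with Benjamini-Hochberg adjustment. The fit was tested on simulated data. Figures used Python 3.11.15 and matplotlib 3.10.9.

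The naming rule took, per comparison, up to 10 higher and 10 lower called members by size of change (each by its probe set of smallest p), a set of well-known members regardless of result, and the called genes with the 3 largest changes each way per pathway list. Other genes given with values were picked with their values in view. The members and lists were chosen with earlier results of these data known. Alternatives were other pseudocounts, filters and normalizations, a replicate block, fits of only the 2 groups, array weights, and each array left out. After the data were seen, 2 were added: averaging WSD+T replicates 1 and 3, the most alike arrays, and leaving PSMD9 out of the subunits.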

Additional observations from a re-analysis of the deposited data

How the results depend on the processing

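Each comparison was refitted under 20 alternatives. The count of called members moved by over 1.5 times in many of them. In WSD against control it was 7, and became 12 with median centring, 3 with the replicate block, 2 with only the 2 groups compared and 2 with array weights, and 2 to 17 when 1 array was left out (17 without WSD replicate 3, 2 without control replicate 3). In WSD+T against control it was 2, and became 1 with a pseudocount of 1, with no filter and with median centring, 0 with the replicate block, 6 with only the 2 groups compared, 10 with array weights, 0 with WSD+T replicates 1 and 3 averaged, and 0 to 4 with 1 array left out. In WSD+T against WSD it was 1, and became 2 with a pseudocount of 64 and with the filter at the 75th percentile, 0 with median centring, the replicate block, only the 2 groups compared, array weights and the averaged replicates, and 0 to 2 with 1 array left out. Over all tested probe sets the share called also moved, in the same order of comparisons. It was 8.41%, 0.0114% and 0.00379% with the replicate block and 3.26%, 12.4% and 0.0341% with only the 2 groups compared. Median centring gave 10.4%, 1.49% and 1.14%, array weights 5.18%, 12.4% and 0.705%, and the averaged replicates 9.61%, 0% and 0%. With 1 array left out it ran from 6.66% to 25% (without WSD replicate 3), from 0% to 6.71% and from 0% to 5.88%. In WSD+T against control it was 1.35% with a pseudocount of 1 and 0.786% with no filter. In WSD+T against WSD it was 3.89% with a pseudocount of 64 and 6.12% with the filter at the 75th percentile. The cause of these shifts was not tested. Same-numbered arrays of different groups had residual correlations of -0.302 to 0.190, and differently numbered ones of -0.446 to 0.427. No pairing by replicate number was evident, but with 3 arrays per group these values could not exclude one.

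The median log2 fold change of the 24 subunit genes moved to 0.19 in WSD against control and to -0.29 in WSD+T against WSD with median centring, which by construction also moved the median of all tested probe sets, to 0.05 and -0.05. Relative to that median the subunits stood at 0.14 and -0.24 with and without the centring, at 0.04 and -0.09 with quantile normalization, and at 0.04 and -0.11 with cyclic loess. Without PSMD9, an alternative added after seeing the data, the medians were 0.07, -0.07 and -0.16 in WSD against control, WSD+T against control and WSD+T against WSD. With 1 array left out the medians ran from 0.01 to 0.13 in WSD against control, from -0.10 to 0.02 in WSD+T against control and from -0.16 to -0.12 in WSD+T against WSD. Of 1489 values of named genes under the alternatives, 177 lost their call, 17 gained one and 10 moved by more than the residual SD. Values called in either setting never changed sign (0 reversed), but 36 of 940 values called in neither did. With 3 arrays per group, 1 spread shared by groups of unequal variance and mixed cell content, small changes of the proteasome genes could not be resolved.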
